A study of Homo sapiens with 6 samples.

Results

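This report concerns 7 genes for ligands that tumour cells display to immune cells, CD274, PDCD1LG2, CD276, CD47, NT5E, PVR and LGALS9, in the melanoma cell line A375. They were chosen by symbol, and all 7 were found among the 16934 genes of the count table. A375 is an established human melanoma line. Its cells received Alt-R CRISPR-Cas9 reagents, with an sgRNA against POLK, the gene for the error-prone DNA polymerase kappa, or with a non-targeting control sgRNA, and no other treatment is named in the labels. Each group held 3 libraries. Separate cultures within a group are not named in the labels, nor whether the cells were a pool or a clone. P-values therefore measure the spread between these libraries alone, which may be technical, and POLK editing and other differences between the 2 edited populations cannot be told apart. The sources used here do not state where in POLK the sgRNA cuts.

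Immune checkpoints are brakes on T cells, natural killer cells and macrophages, and tumour cells can engage them through surface proteins. CD274 (PD-L1) and PDCD1LG2 (PD-L2) bind the receptor PD-1 on T cells, and interferon gamma is the best known inducer of CD274, through JAK kinases and IRF1. CD276 (B7-H3) belongs to the same B7 family, CD47 gives macrophages a signal not to engulf the cell, NT5E (CD73) makes immunosuppressive adenosine outside the cell, PVR (CD155) binds TIGIT and CD96, and LGALS9 (galectin-9) is a lectin that binds TIM-3. In melanoma, antibodies against PD-1 are a standard treatment.

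Total counts were 42852645 to 56891905 per library. POLK, the targeted gene, had 22.4 to 24.0 CPM (counts per 1000000 counts of the scaled library) in the control libraries and 17.2 to 19.2 CPM in the POLK sgRNA libraries, a log2 fold change of −0.36 (SE 0.05). Its annotated span overlaps COL4A3BP on the other strand, which fell from 64.4 to 61.2 CPM. The library kit does not mark strand, so the POLK value is uncertain. Libraries of a group differed by more than counting noise, since the chi-square divided by its degrees of freedom was 1.97 to 4.02 for pairs within a group, against 62.7 to 76.6 across groups. Of 9 tested melanocyte lineage markers 5 rose and 2 fell, beside 32.8% called higher and 31.6% lower over all tested genes. SOX10 (1060 ± 12 and 1155 ± 29 CPM; SD, n = 3), S100B (69.8 ± 5.0 and 88.6 ± 0.22 CPM), S100A1 (19.2 ± 2.5 and 58.3 ± 1.6 CPM), MITF (28.3 ± 0.043 and 32.9 ± 1.2 CPM) and PRAME (214 ± 4.1 and 199 ± 2.6 CPM, called lower) were expressed, while the pigment genes PMEL, MLANA, TYR, TYRP1 and DCT averaged under 1 CPM in both groups. Control library 1 stood apart for DCT, with 64 counts against 2 and 1 in control libraries 2 and 3 and 15, 12 and 5 with the POLK sgRNA. TYR had 19 counts in control library 1 and 0 in every other library. The leukocyte gene PTPRC had 0 to 3 counts in each library. CD3E, MS4A1 and FCGR3A had 0 or 1 count in each. The summed level of 14 leukocyte markers was 21.0 to 21.1 CPM in control and 61.1 to 63.1 CPM in POLK sgRNA libraries, most of it CD68 and LYZ, and 3 of the 7 tested markers rose and 1 fell. The summed endothelial and fibroblast markers were 2.93 to 3.90 and 8.75 to 11.1 CPM in control and 5.57 to 6.04 and 12.4 to 13.7 CPM in POLK sgRNA libraries. Single markers moved both ways: of 4 tested endothelial markers 3 rose and 1 fell, and of 5 tested fibroblast markers 2 rose and 2 fell. Their part in the results below was not tested.

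CD274 lies on chromosome 9 (5450503 to 5470566, plus strand, GRCh38), and the sequence before its start is shown because interferon response elements were searched for there. Stretches of 250 bases before the RefSeq gene start (GRCh38.p14) were matched to 6 of the 7 genes, all but PDCD1LG2. They were searched on both strands for an interferon-stimulated response element (GAAA, any 2 bases, GAAA), a GAS element, known from interferon gamma signalling (TTCNNNGAA), an AP-1 site (TGANTCA), an E-box (CACGTG) and a loose form of the NF-kB site (GGG, any 5 bases, CC). The windows of CD274 and of PVR, the other member that rose, are printed as far as they precede the gene's start in GENCODE 29, at chr9:5450292-5450502 and chr19:44643660-44643797, both on the plus strand. Capitals mark matches to the interferon-stimulated response element and the GAS element.
CD274: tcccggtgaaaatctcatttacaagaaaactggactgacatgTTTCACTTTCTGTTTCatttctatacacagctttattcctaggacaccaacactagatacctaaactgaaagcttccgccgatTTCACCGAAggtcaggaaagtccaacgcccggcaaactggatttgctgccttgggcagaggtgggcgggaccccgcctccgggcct
PVR: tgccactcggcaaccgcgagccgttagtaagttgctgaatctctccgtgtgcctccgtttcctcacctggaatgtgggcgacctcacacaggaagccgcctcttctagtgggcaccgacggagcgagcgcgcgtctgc
The CD274 window held 2 overlapping matches to the interferon-stimulated response element, both on the minus strand (−208 to −199 and −202 to −193, counted from the RefSeq start), and a GAS match at −125 to −117. These motifs were found in 3.02% and 6.57% of all 35116 windows of the same length. No match to either was present in the windows of PVR, NT5E, CD276 (2 windows), CD47 or LGALS9. The windows of NT5E, CD276, CD47 and LGALS9 lie wholly inside the gene's span in GENCODE 29. They do not cover the bases before the start given there. The AP-1 site and the E-box, found in 6.57% and 6.34% of windows, were in none of the 6, and the loose NF-kB site was in all 6 and in 54.4% of windows. A match is a description of letters and not a site of binding.

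Among the 7 ligands, CD274 and PVR rose with the POLK sgRNA, NT5E fell, CD276 and CD47 did not pass the test, and PDCD1LG2 and LGALS9 had too few counts to be tested. So 5 members passed the filter on low counts, and 3 of these were called, 2 higher and 1 lower, at an adjusted p under 0.05 over 13930 genes in the quasi-likelihood test of edgeR. Of all tested genes 64.3% were called, 32.8% higher and 31.6% lower, so the members' share was near the background. The groups did not overlap for these 3 members, and for 67.7% of all tested genes, with the POLK sgRNA libraries above in 34.6% and below in 33.1%. The summed level of the 7 genes was 393 to 405 CPM in control and 402 to 404 CPM in POLK sgRNA libraries, and these ranges overlap.

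**Figure D1:**
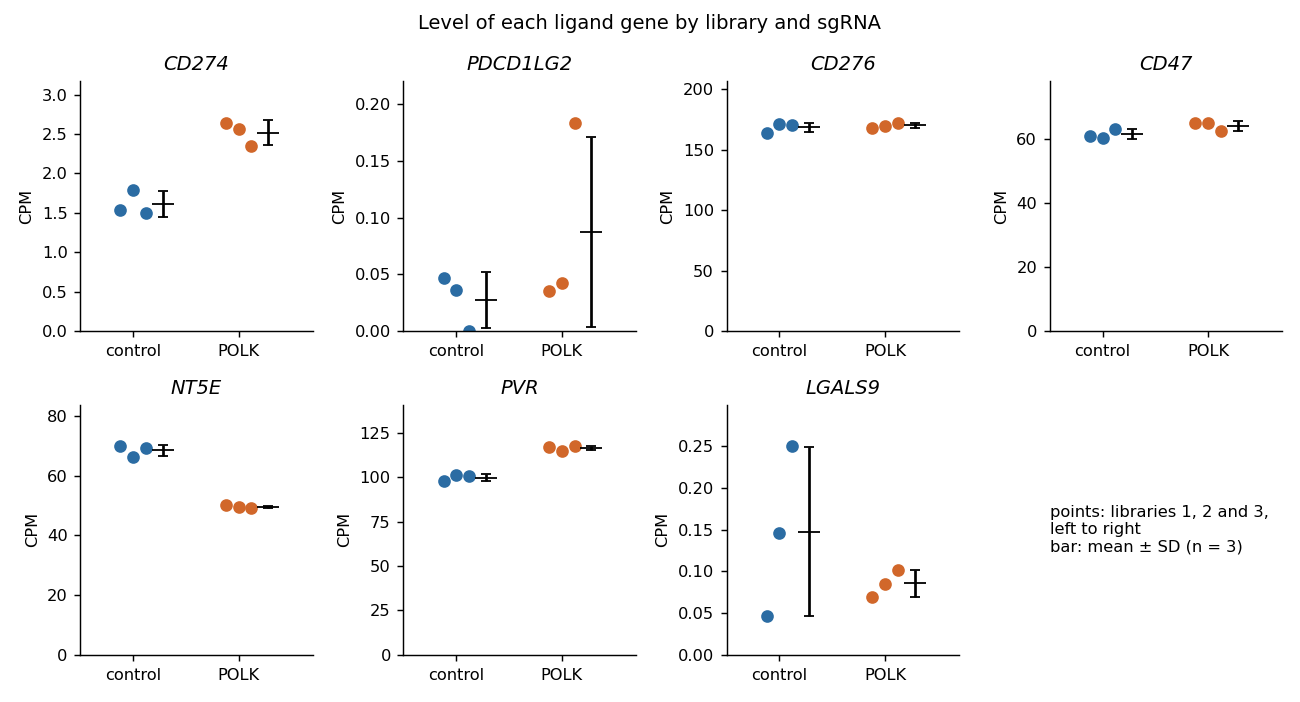
CPM of each ligand gene (vertical axes from 0, each with its own scale) in control and POLK sgRNA libraries 1, 2 and 3, left to right; bars give mean ± SD (n = 3). CD274 and PVR are higher in every POLK sgRNA library, NT5E is lower in every one, and the groups of the other 4 genes overlap.

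Levels between genes were compared per kilobase of merged exons (CPM per kb), which depends on the isoforms annotated in GENCODE 29. In control libraries the order was CD276 (30.4 ± 0.72 CPM per kb), PVR (28.3 ± 0.52), NT5E (15.1 ± 0.41), CD47 (7.47 ± 0.18), CD274 (0.392 ± 0.039), LGALS9 (0.0258 ± 0.0178) and PDCD1LG2 (0.0117 ± 0.0104; SD, n = 3 for each). Neighbours in this order did not overlap between libraries, except LGALS9 and PDCD1LG2. CD276 exceeded 88.7% of tested genes in level per kilobase and CD274 exceeded 15.4%. With the POLK sgRNA the leading pair changed places: PVR was at 32.6 to 33.3 CPM per kb in the 3 libraries and CD276 at 30.4 to 31.1, without overlap. NT5E, CD47 and CD274 followed in the same order as in control. By mean PDCD1LG2 (0.0369 ± 0.0354) was then above LGALS9 (0.0150 ± 0.0028), and their libraries overlapped again.

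CD274, the ligand of PD-1 that clinical tests stain for, had 66, 98 and 72 counts in control libraries 1, 2 and 3, against 151, 120 and 115 counts in the POLK sgRNA libraries in the same order. Scaled to depth these were 1.54, 1.79 and 1.499 CPM against 2.64, 2.56 and 2.35 CPM. Every POLK sgRNA library was above every control library, by 1.31 to 1.76 times over all pairs. The mean rose from 1.61 ± 0.16 to 2.52 ± 0.15 CPM, by 0.64 on the log2 scale (SE 0.13; edgeR adjusted p = 6.58e-05), a change larger in size than that of 86.1% of tested genes. The spread between libraries, 9.92% in control and 6.08% with the POLK sgRNA, was no larger than the 11.3% and 8.82% expected from counting alone. In bulk RNA, a change in the number of cells that express the gene and a change in RNA per cell cannot be told apart.

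PDCD1LG2 encodes the other ligand of PD-1 and lies beside CD274 (chromosome 9, 5510570 to 5571254, plus strand). It had 2, 2 and 0 counts in control libraries 1, 2 and 3, against 2, 2 and 9 in the POLK sgRNA libraries in the same order. Of the 13 counts with the POLK sgRNA, 9 lay in library 3. The pooled ratio to control was 3.09 with an exact 95% interval of 0.955 to 13.0, which covers counting error only, and 1.40 (0.261 to 7.52) without POLK sgRNA library 3. Over all libraries a difference was not detectable at this depth. The interval lay above 1 on leaving out POLK sgRNA library 1 (1.24 to 17.99) or 2 (1.12 to 16.2). The ratio of CD274 to PDCD1LG2 per library, with 0.5 counts added because control library 3 had no PDCD1LG2 count, differed between groups by −0.70 on the log2 scale (exact permutation test, two-sided, p = 0.6, n = 3 libraries a group), and by 0.022 without control library 3 and 0.018 without POLK sgRNA library 3. The exact test cannot go below p = 0.1.

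CD276 (chromosome 15, 73683966 to 73714518, plus strand), a B7 protein found on many tumours, had 164, 171 and 170 CPM in control libraries 1, 2 and 3, against 168, 170 and 172 CPM in the POLK sgRNA libraries in the same order. The groups overlapped. Its log2 fold change was 0.01 (SE 0.02, 95% interval −0.03 to 0.06; edgeR adjusted p = 0.612). Other members of the B7 family moved both ways. NCR3LG1 (B7-H6), a ligand that activates natural killer cells, rose from 12.4 ± 0.47 to 18.4 ± 0.54 CPM. VSIR (VISTA), a T cell inhibitor, fell from 9.48 ± 0.53 to 6.89 ± 0.57 CPM, and ICOSLG, the ligand of the costimulator ICOS, fell from 0.527 ± 0.131 to 0.0739 ± 0.0445 CPM. CD80, CD86 and VTCN1 were under 0.1 CPM in both groups and were not tested. In all, 9 of the 10 listed B7 genes were analysed, 5 were tested, 2 rose and 2 fell, beside 32.8% higher and 31.6% lower over all tested genes.

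**Figure D2:**
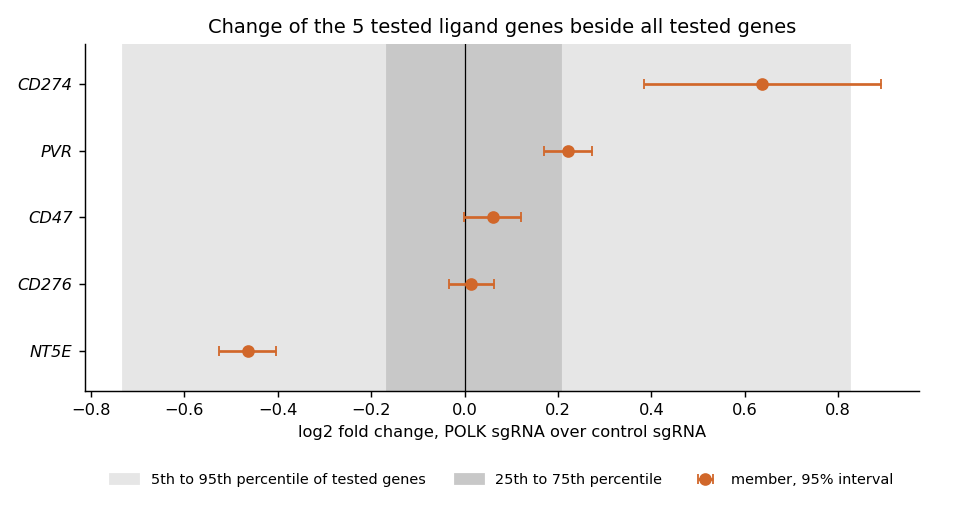
Log2 fold change (horizontal axis, POLK sgRNA over control) of the 5 tested ligand genes, with 95% intervals, on grey bands for the 25th to 75th and the 5th to 95th percentile of all tested genes. CD274, PVR and NT5E lie outside the inner band (−0.17 to 0.21) and inside the outer band (−0.73 to 0.82), and CD276 and CD47 lie inside the inner band.

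The genes that carry the interferon gamma signal to CD274 showed no shared direction. Of 16 tested, 4 rose, 3 fell and 9 did not pass, beside 32.8% higher and 31.6% lower over all tested genes. Their median was 0.01 on the log2 scale, the same as over all tested genes (0.01). JAK1 had 75.7 ± 0.72 and 74.5 ± 1.1 CPM in control and POLK sgRNA libraries, JAK2 11.0 ± 0.74 and 10.8 ± 0.28, and IRF1 5.4 ± 0.61 and 5.57 ± 0.42, and none of these 3 passed the test. The receptor gene IFNGR1 fell from 14.9 ± 0.12 to 13.1 ± 0.41 CPM. STAT3 fell from 167 ± 3.2 to 142 ± 3.3 CPM and SOCS3, a feedback inhibitor of JAK signalling, from 27.1 ± 2.3 to 20.4 ± 0.67 CPM. PTPN11, the gene of the phosphatase SHP2, rose from 216 ± 3.9 to 302 ± 3.0 CPM and STAT2, a factor of type I interferon signalling, from 27.5 ± 0.89 to 42.6 ± 0.56 CPM, both on chromosome 12. PTPN11 overlaps RPL6 on the other strand, which rose from 901 to 1418 CPM, and the library kit does not mark strand, so its value is uncertain.

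A list of 28 genes that act on CD274 transcription, its mRNA or the PD-L1 protein held 27 tested genes, of which 7 rose and 12 fell (median log2 fold change −0.05). Over all tested genes 32.8% were called higher and 31.6% lower. All 7 that rose are named below because the larger number fell, and the 12 that fell are not named. CDK4, a cyclin D kinase whose activity lowers PD-L1 protein through the ligase adaptor SPOP, rose from 133 ± 3.4 to 204 ± 2.0 CPM. The casein kinase gene CSNK2A1 rose from 196 ± 1.8 to 289 ± 2.7 CPM and HIP1R, which directs PD-L1 to lysosomes, from 24.7 ± 0.76 to 41.7 ± 0.77 CPM. CDK4 and HIP1R lie on chromosome 12, like PTPN11 and STAT2 above. Whether genes of that chromosome rose together was not tested. CSNK2A1 has a near-identical processed copy, so its value is uncertain. STUB1, a ubiquitin ligase gene, NFKB1, a subunit gene of NF-kB, and ZFP36, whose product destabilises mRNAs with AU-rich elements, also rose, with log2 fold changes of 0.19, 0.15 and 0.24. CDK4 and STUB1 overlap genes of the other strand that also rose (TSPAN31, MARCH9 and JMJD8), so their values are uncertain. CDK5, a kinase gene, rose by 0.098 on the log2 scale, a call lost without control library 1 (adjusted p = 0.162) or 2 (0.161) or POLK sgRNA library 1 (0.1) or 3 (0.0528), in DESeq2 (0.083) and in glmTreat (1). CDK5 overlaps SLC4A2 on the other strand, which fell from 317 to 257 CPM, so its value is uncertain too. Among those that did not pass were CMTM6, which keeps PD-L1 at the surface, at 109 ± 0.64 and 112 ± 4.1 CPM, and SPOP at 67.1 ± 2.7 and 66.6 ± 1.1 CPM. Protein levels were not measured.

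PVR (chromosome 19, 44643798 to 44663583, plus strand), a nectin-like adhesion molecule, had 97.5, 101 and 100.5 CPM in control libraries 1, 2 and 3, against 117, 115 and 117 CPM in the POLK sgRNA libraries in the same order. The groups did not overlap, and the lowest ratio between a POLK sgRNA and a control library was 1.14. It rose from 99.7 ± 1.8 to 116 ± 1.2 CPM, or by 0.22 on the log2 scale (SE 0.03; edgeR adjusted p = 5.01e-09). Tested against a minimum change of 0.322 on the log2 scale it did not pass (adjusted p = 1 in edgeR's glmTreat). The annotated span of PVR overlaps that of CEACAM19 on the same strand, which had 0.789 and 0.360 CPM.

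NECTIN2, which like PVR binds TIGIT, lies close by on chromosome 19. It fell from 47.4 ± 0.69 to 44.0 ± 1.6 CPM, with a log2 fold change of −0.11 (edgeR adjusted p = 0.00719). The call was lost on leaving out POLK sgRNA library 1 (adjusted p = 0.0591) and in glmTreat. There were 2.09, 2.10 and 2.12 PVR counts for each NECTIN2 count in control libraries 1, 2 and 3, against 2.75, 2.61 and 2.57 in the POLK sgRNA libraries in the same order. The log2 ratio was higher by 0.33 with the POLK sgRNA (exact permutation test, two-sided, p = 0.1, n = 3 libraries a group), which is the smallest p that 3 against 3 allows.

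Besides PVR, 9 genes of the nectin family and its receptors were tested, of which 7 fell and 1 rose, beside the 31.6% lower and 32.8% higher of all tested genes. Their median was −0.42 on the log2 scale, against 0.01 over all tested genes. CADM3, a nectin-like adhesion gene of neurons, fell from 35.6 ± 1.9 to 7.76 ± 0.41 CPM and CADM4 from 405 ± 14 to 241 ± 5.5 CPM. NECTIN1 fell from 65.7 ± 2.6 to 49.3 ± 0.64 CPM, AFDN, the adaptor that links nectins to actin, from 32.2 ± 1.1 to 23.9 ± 0.38 CPM, and NECTIN3 from 31.5 ± 0.61 to 28.9 ± 0.96 CPM. CADM1 was the member that rose, from 69.0 ± 1.4 to 74.3 ± 1.3 CPM. CD96, a receptor for PVR known from T and natural killer cells, had 138 ± 1.5 CPM in control and 94.8 ± 4.9 CPM in POLK sgRNA libraries and fell by 0.54 on the log2 scale. Its annotated span holds ZBED2 on the other strand, at only 0.0972 and 0.0651 CPM. The span also holds pseudogenes on the same strand that were not counted here, so the value of CD96 is uncertain. The other PVR receptors were near 0, with 1 to 6 TIGIT counts in each library.

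NT5E encodes the enzyme that turns extracellular AMP into adenosine (chromosome 6, 85449584 to 85495791, plus strand). It had 69.8, 66.4 and 69.4 CPM in control libraries 1, 2 and 3, against 50.04, 49.5 and 49.3 CPM in the POLK sgRNA libraries in the same order. All POLK sgRNA libraries were below all control libraries, at 0.706 to 0.754 times their level over all pairs. The mean fell from 68.5 ± 1.9 to 49.6 ± 0.40 CPM, to 72.4% of control, that is, it fell by 0.46 on the log2 scale (SE 0.03; edgeR adjusted p = 7.45e-15). It also passed against a minimum change of 0.322 on the log2 scale (adjusted p = 4.69e-05 in edgeR's glmTreat).

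Of 13 other genes of the adenosine pathway that were tested, 7 rose, 2 fell and 4 did not pass (median log2 fold change 0.12). Over all tested genes 32.8% were called higher and 31.6% lower, and the share called among the 13 is near that background. ENTPD1 (CD39), which makes the AMP that NT5E uses, rose from 4.61 ± 0.41 to 6.45 ± 0.40 CPM, and ENPP1, which also makes AMP from ATP, from 6.66 ± 0.35 to 7.94 ± 0.51 CPM. A further AMP phosphatase gene, ACPP, rose from 2.20 ± 0.12 to 4.57 ± 0.31 CPM, while ALPL, an alkaline phosphatase with the same activity, fell from 1.41 ± 0.15 to 0.400 ± 0.043 CPM. Of the genes that remove adenosine, ADA, a deaminase, rose from 19.1 ± 0.078 to 21.9 ± 1.3 CPM and the kinase ADK fell from 34.0 ± 1.6 to 30.3 ± 0.31 CPM. The adenosine receptor genes ADORA1 (11.4 ± 0.34 and 12.04 ± 0.38 CPM) and ADORA2B (21.0 ± 1.0 and 20.4 ± 0.50 CPM) did not pass, and ADORA2A, the main receptor on T cells, averaged under 0.1 CPM in both groups.

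CD47 (chromosome 3, 108043094 to 108091862, minus strand) had 60.8, 60.3 and 63.1 CPM in control libraries 1, 2 and 3, against 64.9, 64.9 and 62.3 CPM in the POLK sgRNA libraries in the same order. Control library 3 and POLK sgRNA library 3 cross the other group. The log2 fold change was 0.06 (SE 0.03, 95% interval −0.00 to 0.12), and edgeR's adjusted p was 0.0901. It passed with library size alone as the scaling (adjusted p = 0.0326) and on leaving out POLK sgRNA library 3 (adjusted p = 0.0381).

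Genes around CD47 moved in both directions, with 2 of 12 higher and 4 lower (median log2 fold change 0.04). Among all tested genes 32.8% were called higher and 31.6% lower. CALR, whose product at the surface is a signal to engulf the cell that CD47 counters, fell from 1750 ± 28 to 1276 ± 19 CPM. THBS1, a thrombospondin that binds CD47, fell from 413 ± 4.6 to 251 ± 24 CPM and the related THBS2 rose from 4.72 ± 0.19 to 11.6 ± 0.86 CPM. CD24, a second signal against engulfment, fell from 2.93 ± 0.15 to 0.533 ± 0.173 CPM and has pseudogenes of near-identical sequence, so its value is uncertain. QPCTL, the enzyme that modifies CD47 so that its receptor SIRPA binds it, had 34.0 ± 0.96 and 34.9 ± 1.5 CPM and did not pass, and its relative QPCT rose from 5.73 ± 0.37 to 8.68 ± 0.30 CPM.

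LGALS9 (chromosome 17, 27629798 to 27649560, plus strand) had 2, 8 and 12 counts in control libraries 1, 2 and 3, against 4, 4 and 5 in the POLK sgRNA libraries in the same order. Control library 1 was below all POLK sgRNA libraries and the other control libraries were above them. The pooled ratio was 0.562, with an exact 95% interval of 0.260 to 1.17 for counting error, so no difference was detectable at this depth. Without control library 1 it was 0.436 (0.199 to 0.922) and without control library 3 0.829 (0.336 to 2.11). The near-identical genes LGALS9B and LGALS9C were not analysed here, and reads shared with them make the count uncertain. Of 10 tested genes of galectins, galectin partners and glycan enzymes, 6 rose and 3 fell (median log2 fold change 0.16). The shares over all tested genes were 32.8% higher and 31.6% lower. LGALS3, which binds the T cell receptor LAG3, rose from 33.5 ± 0.43 to 59.6 ± 0.55 CPM, LGALS3BP from 494 ± 6.3 to 550 ± 6.5 CPM and LGALS1 from 474 ± 13 to 527 ± 2.8 CPM. MGAT5, which builds the branched glycans that galectins bind, fell from 156 ± 1.0 to 121 ± 3.2 CPM. P4HB, a disulphide isomerase that galectin-9 binds, fell from 776 ± 20 to 734 ± 9.9 CPM. LGALSL, a galectin-like gene, fell by 0.22 on the log2 scale, a call lost without POLK sgRNA library 1 (adjusted p = 0.0657) and in glmTreat.

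**Figure D3:**
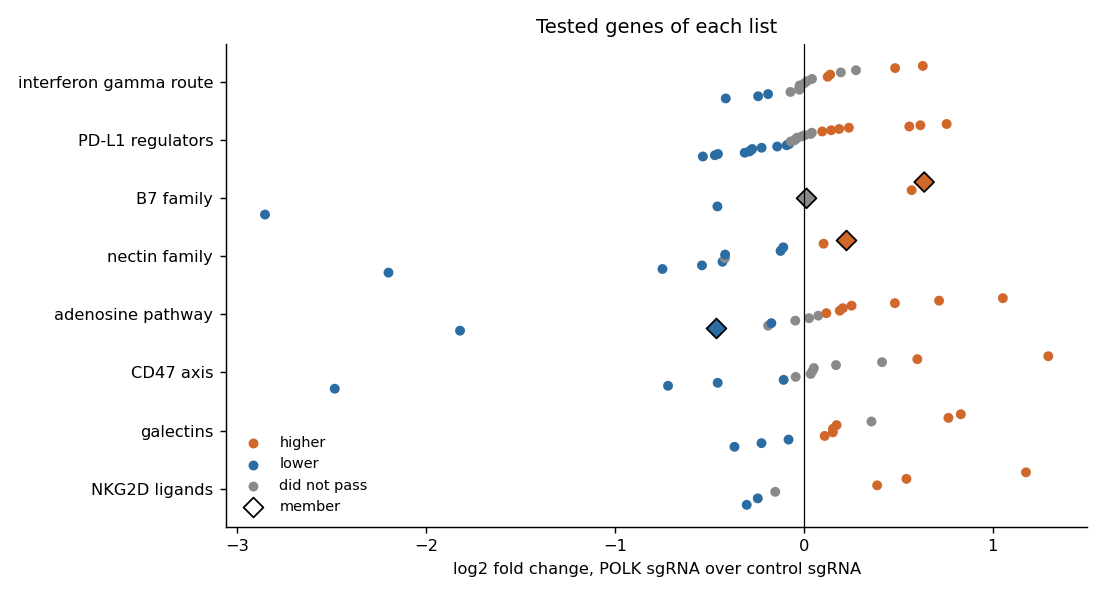
Log2 fold change (horizontal axis) of each tested gene in 8 lists; orange points rose, blue fell and grey did not pass, and outlined diamonds are the ligand genes described. In the nectin family PVR lies right of 0 and 7 of the other 9 genes fell, and in the adenosine pathway NT5E lies left of 0 and 7 of the other 13 genes rose.

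A wider list of molecules that tumour cells show to immune cells moved both ways: of 22 tested, 12 rose and 8 fell (median log2 fold change 0.17). It overlaps the lists above. LGALS1, LGALS3, VSIR, ICOSLG, NECTIN2, NECTIN3, CD24 and CEACAM1 were counted there as well. For this wider list and the smaller lists below, the shares over all tested genes were 32.8% higher and 31.6% lower. HMGB1, an alarm signal of dying cells, fell from 808 ± 2.0 to 691 ± 8.9 CPM and CD70, the ligand of the costimulator CD27, from 81.2 ± 1.2 to 69.6 ± 2.0 CPM. HMGB1 has many processed copies of near-identical sequence, so its value is uncertain. Of the butyrophilin genes, BTN2A1 fell from 21.6 ± 0.39 to 19.2 ± 0.18 CPM, while its partner in the signal to gamma delta T cells, BTN3A1, rose from 9.73 ± 0.42 to 13.9 ± 0.59 CPM. BTN3A2, BTN3A3 and BTN2A2 rose as well, by 0.23, 0.59 and 0.37 on the log2 scale, and these close relatives can share reads. TNFRSF14, the ligand of BTLA, rose from 2.43 ± 0.27 to 4.73 ± 0.23 CPM. Of 6 tested ligands of the activating receptor NKG2D, 3 rose and 2 fell, with ULBP2 at 7.13 ± 0.44 and 10.5 ± 0.75 CPM, MICA at 18.5 ± 0.29 and 15.1 ± 0.64 CPM and MICB at 14.99 ± 0.21 and 12.7 ± 0.67 CPM. MICA and MICB are close relatives that can share reads. Receptors that leukocytes use for these ligands were under 1 CPM apart from CD96 and SIRPA (28.5 ± 0.29 and 27.7 ± 0.92 CPM). Of the 5 tested, TNFRSF9 rose and CD96 and CTLA4 fell, and the calls of TNFRSF9 (0.0989 and 0.229 CPM) and CTLA4 (0.435 and 0.273 CPM) were lost without control library 2 (adjusted p = 0.122 and 0.383), and that of CTLA4 also without POLK sgRNA library 1 (0.214) or 2 (0.0606). The call of TNFRSF9 was also lost in DESeq2 (adjusted p = 0.0907) and glmTreat (0.0735). That of CTLA4 was also lost with library size alone (adjusted p = 0.0509), with the replicate block (0.0644), in DESeq2 (0.16), limma-voom (0.0595) and glmTreat (0.207). PDCD1, the gene of PD-1, had 0 or 1 count in each library. HAVCR2, the gene of TIM-3, had 3 counts, all in control library 3.

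The tested genes nearest to each member were described beside it. The 20 genes of a member spanned 959 kb around PVR, 2639 kb around CD276, 5896 kb around NT5E and 7568 kb around LGALS9. They spanned 8886 kb around PDCD1LG2, 9492 kb around CD274 and 10430 kb around CD47, so some lie far from the member. The counts below stand beside 32.8% higher and 31.6% lower over all tested genes. Around CD274, the 10 tested genes on each side held 6 that rose and 8 that fell, and their median was −0.02 on the log2 scale. Only GLDC of those 20 had a larger log2 fold change than CD274, and the nearest tested neighbours of CD274, PLGRKT and RIC1, had 0.22 and −0.11. RIC1 overlaps ERMP1 on the other strand, which rose (log2 fold change 0.34), so the RIC1 value is uncertain. Around NT5E, 1 rose and 7 fell, with a median of −0.05, and 17 of 20 were above NT5E. TBX18 and SNX14, on either side of NT5E, had 0.24 and 0.03. The 20 genes around PVR held 9 that rose and 6 that fell (median 0.12), and 6 exceeded PVR. ZNF180 and CEACAM19, on either side of PVR, had log2 fold changes of 0.12 and −1.10. Around CD276 7 rose and 7 fell (median 0.01), and its nearest neighbours NPTN and C15orf59 had 0.0030 and −1.37. Around CD47 6 rose and 6 fell (median −0.01), with 0.12 and 0.16 for BBX and IFT57 beside it. Around PDCD1LG2 7 rose and 7 fell, mostly the same genes as around CD274, and CD274 itself is among those that rose. Around LGALS9 6 rose and 6 fell (median −0.03), where KSR1 and NOS2 were nearest, with −0.44 and 0.33.

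**Figure D4:**
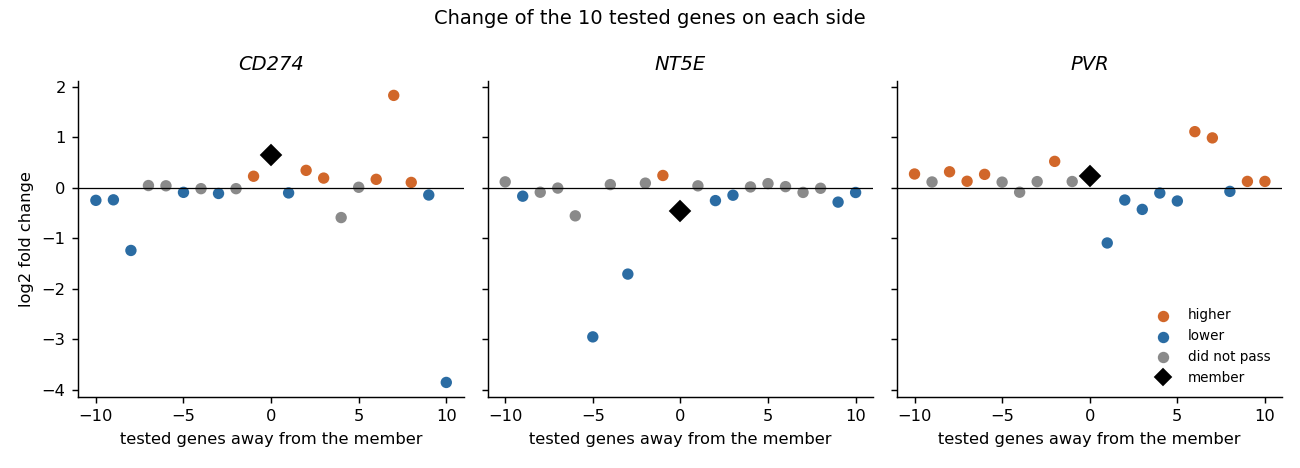
Log2 fold change (vertical axis) of the 10 tested genes on each side of CD274, NT5E and PVR, in order along the chromosome (horizontal axis, number of tested genes from the member); orange rose, blue fell, grey did not pass and black diamonds are the members. CD274 (0.64) lies above all but GLDC of its 20 neighbours, and NT5E (−0.46) lies below 17 of 20.

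The genes whose pattern over the 6 libraries was most like that of a member were taken from 9432 genes averaging 10 CPM or more, by Pearson's r of log2 CPM. All share the same libraries, and for members that differ between groups r includes the group difference: 1936 genes had r over 0.9 with CD274, 2424 with NT5E and 2353 with PVR, against 39 with CD276 and 95 with CD47. NEFL (r = 0.998) and ATF7 (r = 0.995) were most like CD274, with log2 fold changes of 0.26 and 0.64. ATF7 lies on chromosome 12, like PTPN11, STAT2, CDK4 and HIP1R. LRP1, CD4 and LAG3 of the lists lie there too and did not pass. Whether genes of that chromosome rose together was not tested. NOB1 (r = 0.9997) and SORBS2 (r = 0.999) were most like NT5E, with −0.44 and −0.45. NSMAF (r = 0.999) was among the 2 most like PVR, with 0.17. For CD276 they were MPDU1 (r = 0.999) and PER1 (r = 0.995), and for CD47 FANCF (r = 0.993) and MCAT (r = 0.992). MPDU1 overlaps FXR2 and SOX15 on the other strand and FANCF overlaps GAS2 there, so their values are uncertain.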

How the data were processed

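RNA sequencing was done on 6 libraries of A375 cells, 3 with a control sgRNA and 3 with a POLK sgRNA, from the TruSeq RNA V2 kit per the labels' protocols, which does not mark strand. The authors deposited raw counts per gene, not normalized. FastQC, Trimmomatic, STAR and DESeq2 and the build GRCh38 are named in the submitters' processing notes, while the sources used here give no counting tool, annotation or version. Columns were matched to samples by name. The filter filterByExpr of edgeR, at a minimum count of 10 and a minimum total of 15, left 13930 genes, whose counts were scaled by TMM (factors 0.991 to 1.01). Groups were compared with the quasi-likelihood F test of edgeR 4.0.16 (R 4.3.3) with robust dispersion and the group as the only term. P-values are two-sided and Benjamini-Hochberg adjusted over the tested genes, with a threshold of 0.05, and the script was tested on simulated data. The SE was derived from the F statistic, as the size of the log2 fold change divided by its root. CPM uses TMM-scaled library sizes. Positions and exon lengths came from GENCODE 29 (GRCh38).

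The members and gene lists were chosen with earlier results of these data known. Genes named are POLK, the members, in each list the 3 other genes with the smallest p and those called against most of their list, the nearest tested gene on each side of a member, and the 2 most alike genes, of which 1 is not reported here; others (among them JAK1, JAK2, IRF1, CMTM6, SPOP, ENPP1, ADA, THBS1, NECTIN1, AFDN, TNFRSF14, GLDC, other butyrophilins than BTN2A1, and the lineage and leukocyte markers) were named for their role or value after values were seen. No set test was run. Ratios were compared by exact permutation tests. Alternatives were DESeq2's size factors, library size alone, no filter, a mean of at least 1 CPM, a block for the replicate number, limma-voom (limma 3.58.1), DESeq2 1.42.0, glmTreat against a log2 fold change of 0.322 and each library left out. A gene whose log2 fold change is under 0.322 in size cannot pass glmTreat, also where the text does not say so. For PDCD1LG2 and LGALS9 pooled counts were used, an alternative chosen after seeing the data.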

Additional observations from a re-analysis of the deposited data

How the results depend on the processing

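CD274, NT5E and PVR kept their direction and their call under every alternative run, except that PVR (0.22) did not pass in glmTreat against a log2 fold change of 0.322. On leaving out 1 library the log2 fold change was 0.58 to 0.73 for CD274, −0.49 to −0.46 for NT5E and 0.20 to 0.23 for PVR. CD276 passed under none of them, with −0.01 to 0.02 on leaving out 1 library. CD47 passed with library size alone (0.076), and had 0.043 to 0.081 on leaving out 1 library, passing without POLK sgRNA library 3. The counts of genes called, 4566 higher and 4396 lower, were 1653 and 1224 with glmTreat, 4181 to 4441 higher and 4091 to 4286 lower on leaving out 1 library, and within 1.5 times of the main counts under the other alternatives. With the replicate block the counts were 4483 and 4290, and no member's call changed. Libraries of the same number did not deviate together (correlations of −0.06, −0.08 and −0.15), and no library correlated best with its own number. The log2 ratio of CD274 to PDCD1LG2 was −1.20 to 0.022 on leaving out 1 library and changed sign without control library 3 (0.022) or POLK sgRNA library 3 (0.018), and that of PVR to NECTIN2 was 0.30 to 0.35. The pooled ratio was 1.40 to 4.36 for PDCD1LG2 and 0.436 to 0.829 for LGALS9 on leaving out 1 library. Without a filter edgeR gave PDCD1LG2 a log2 fold change of 1.55 (adjusted p = 0.132) and LGALS9 −0.81 (adjusted p = 0.248). Depth limits both genes. The planned sum of LGALS9 with LGALS9B and LGALS9C was not run.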
